A study of Rattus norvegicus with 4 samples.

Results

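The transcripts described here encode G0s2, an inhibitor of fat breakdown, the lipases Lpl, Lipe and Lipa, and the lipoprotein receptors Scarb1 and Vldlr. They were measured in rat soleus, a hindlimb muscle of slow fibres that holds posture. All probe sets annotated to these 6 genes were taken, 6 of the 4736 genes with a probe set of their own, which gave 13 of the 8740 non-control probe sets of the array: 3 each for Lpl, Lipa and Scarb1, 2 for Lipe, and 1 each for G0s2 and Vldlr. The genes were chosen by their role in lipid handling and on their unloaded minus control differences in signal on these same arrays, so their differences are given as a description and support no claim about the group of genes as a whole.

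The unloaded group was 2 pools of soleus RNA from female rats that were kept from standing on their hindlimbs for 10 h of each day, on 11 consecutive days. The control group was 2 pools from female rats caged with normal standing and walking. No strain or age is given in the sources used here. Each pool combined RNA of 4 to 5 rats and was hybridised to 1 Affymetrix array, so spreads and tests refer to differences between pools and not between animals, and the number of arrays limits the precision.

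Muscle takes up fatty acids that are freed at the capillary wall and also from its own lipid droplets. Lpl is the lipase that muscle and fat cells secrete to the capillary wall, where it cuts the triglyceride of circulating lipoproteins, and its activity is known to be controlled to a large extent after transcription. Inside the cell, Pnpla2 (adipose triglyceride lipase) removes a fatty acid from a stored triglyceride, Lipe (hormone-sensitive lipase) cuts the diglyceride that remains, and G0s2 binds Pnpla2 and blocks it. Lipa is the acid lipase of the lysosome and cuts cholesteryl esters and triglycerides that arrive by endocytosis or autophagy. Scarb1 takes up cholesteryl esters from high-density lipoprotein without degrading the particle, and Vldlr binds triglyceride-rich particles and works together with Lpl.

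Signals are the deposited linear MAS5 values of a probe set. Values of different probe sets are set against each other only to pick the brightest of a gene and in the sums of cell type markers. Those sums mostly follow their brightest members. Differences are unloaded minus control on the scale log2(signal + 9), with the standard error (SE) from limma, and this scale understates the change of dim transcripts. A probe set was tested if its mean signal was at least 21.0, and it passed if its Benjamini-Hochberg adjusted p, over all 5257 tested probe sets, was under 0.05. All 13 probe sets reached the filter. The control means of 1 Lipa probe set (9.20) and 1 Scarb1 probe set (16.0) lay under it, so these entered only through their unloaded signal.

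G0s2 had by far the largest difference of the 6 genes. Its probe set rc_AA893235_at read 315.8 and 285.2 signal units in unloaded pools 1 and 2, against 27.3 and 20.3 in control pools 1 and 2. Both unloaded pools were more than 10 times as high as either control pool, with ratios between single pools of 10.4 to 15.6. The means were 300.5 ± 21.6 in unloaded pools and 23.8 ± 4.95 in control pools (SD, n = 2 each), and the log2 difference was 3.24 (SE 0.15). In order of log2 difference this was number 2 of the 5257 tested probe sets, after a probe set annotated to several genes. The middle of all tested probe sets lay at 0.00, with 95% of them below 0.49 and 99% below 0.91. Pnpla2, the lipase that G0s2 inhibits, was not analysed here.

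The sequence around the annotated start of G0s2 is shown because this gene differed most, and that of Lipa because its probe set rc_AA874784_s_at had the next largest difference. Both are RefSeq windows of the assembly GRCr8, read 5′ to 3′ on the gene's strand, from 250 bases before the start to 50 after it. That of G0s2 is chr13:107335899-107336198 (minus strand) and that of Lipa is chr1:241470691-241470990 (minus strand). Windows for G0s2, Lipa and Vldlr were matched by symbol, and those of Lpl, Lipe and Scarb1 were not analysed here. Capitals mark a match, on either strand, to one of these motifs: the TATA-type TATAA, the GC box GGGCGG and the CCAAT box.
G0s2: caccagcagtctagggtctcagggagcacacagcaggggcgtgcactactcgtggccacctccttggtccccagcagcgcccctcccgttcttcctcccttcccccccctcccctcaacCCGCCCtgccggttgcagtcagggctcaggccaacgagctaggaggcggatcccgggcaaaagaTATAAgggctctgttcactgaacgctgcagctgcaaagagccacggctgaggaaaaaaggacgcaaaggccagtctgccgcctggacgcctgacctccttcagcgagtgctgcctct
Lipa: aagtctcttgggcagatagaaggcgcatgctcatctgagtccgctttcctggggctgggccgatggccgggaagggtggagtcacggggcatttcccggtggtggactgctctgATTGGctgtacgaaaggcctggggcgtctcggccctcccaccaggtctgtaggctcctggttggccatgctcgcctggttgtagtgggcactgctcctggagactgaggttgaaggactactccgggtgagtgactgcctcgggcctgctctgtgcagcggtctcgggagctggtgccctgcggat
The G0s2 window holds TATAA on the printed strand, beginning 67 bases before the start, and GGGCGG on the opposite strand (printed as its complement), beginning 131 bases before it. The Lipa window holds CCAAT on the opposite strand, beginning 136 bases before the start. These matches do not overlap each other. Of 33469 rat promoter windows of the same length, 26.2% hold the TATA-type motif, 33.1% the GC box and 37.5% the CCAAT box. The E box CACGTG, found in 6.42% of windows, had no match in the windows of G0s2, Lipa or Vldlr. The share of G and C was 63.7% for G0s2, 63.3% for Lipa and 73.0% for Vldlr, against a median of 51.7% over all windows. A match or its absence describes these letters and says nothing about binding of a factor.

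**Figure D1:**
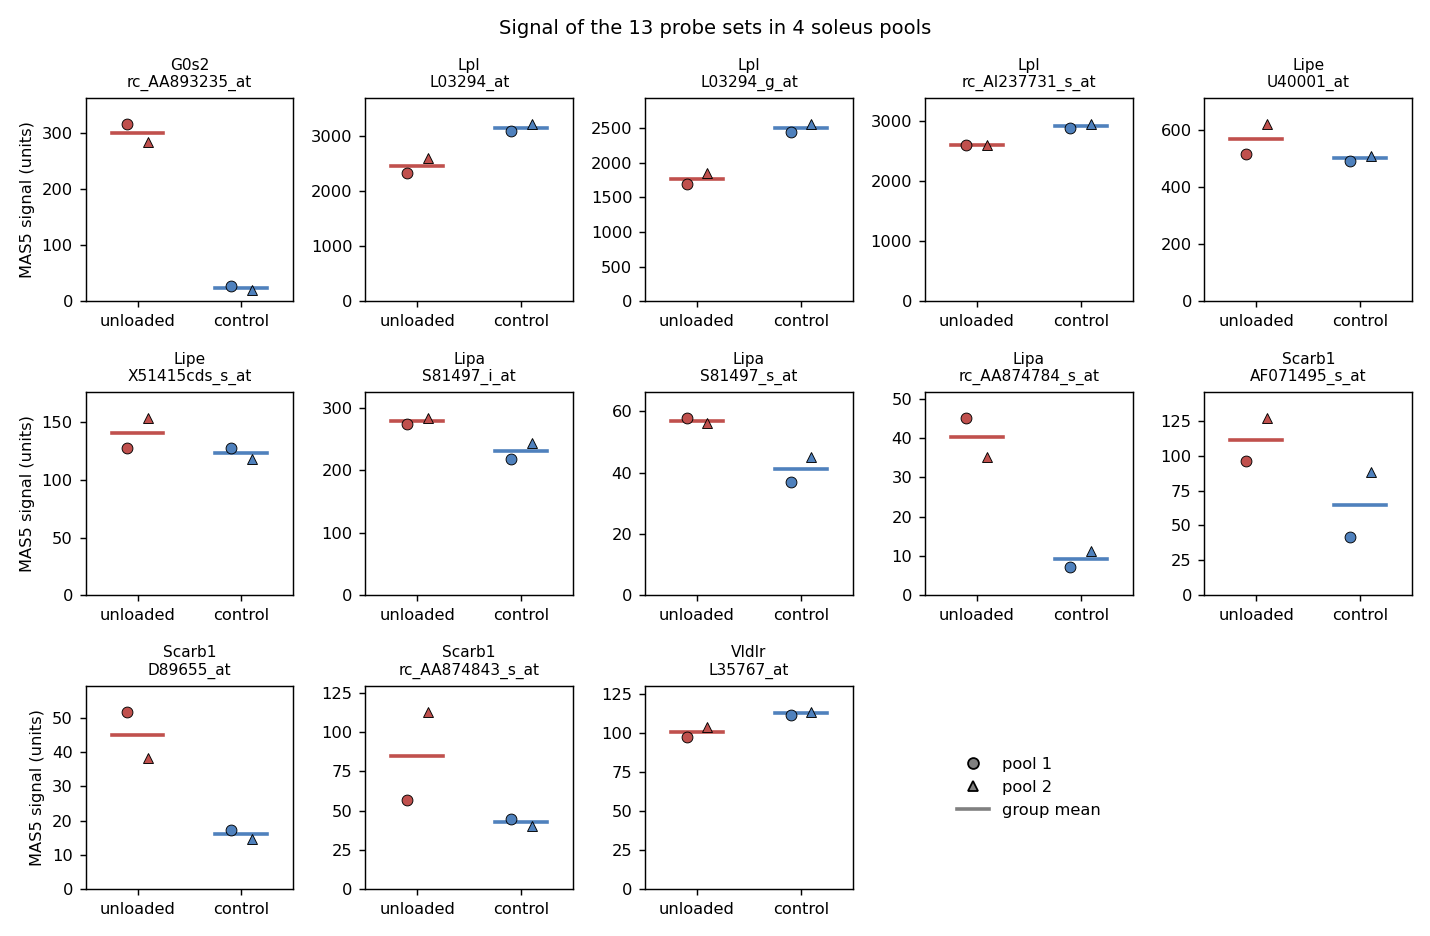
MAS5 signal (linear axis from 0, a separate scale for each panel) of each of the 13 probe sets in unloaded pools (left) and control pools (right), with circles for pool 1, triangles for pool 2 and lines for group means. G0s2 stands at 300.5 in unloaded and 23.8 in control pools, Lpl lies lower in unloaded pools on all 3 probe sets, and Lipa and Scarb1 lie higher on all 3 of theirs.

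Lpl, the lipase of the capillary wall, was lower in unloaded pools on each of its 3 probe sets, by 10.8% to 29.1% of the control mean. Probe set L03294_g_at read 1683.8 and 1854.2 in unloaded pools, against 2443.3 and 2548.3 in control pools. Its means were 1769 ± 120 in unloaded pools and 2496 ± 74.2 in control pools (SD, n = 2 each), and its log2 difference of -0.50 (SE 0.09) passed the threshold. With any 1 array left out it did not pass, at differences of -0.56 to -0.43.

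Probe set L03294_at was designed on the same Lpl sequence, as its name shows, and so is not independent of L03294_g_at. It read 2316.5 and 2589.2 in unloaded pools, against 3087.4 and 3199.9 in control pools, with a log2 difference of -0.36 (SE 0.09) that did not pass. The third, rc_AI237731_s_at, comes from an expressed sequence tag and read 2598.7 and 2601 in unloaded pools, against 2887.8 and 2944 in control pools, at -0.16 (SE 0.08), and did not pass. All 3 gave the same order of pools, with pool 2 above pool 1 in both groups and both unloaded pools below both control pools.

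Lipe, the hormone-sensitive lipase, differed little between the groups on both probe sets, and neither passed. U40001_at read 515.9 and 620.9 in unloaded pools, against 493.2 and 510.4 in control pools, a log2 difference of 0.17 (SE 0.11). X51415cds_s_at read 128 and 153.5 in unloaded pools, against 127.8 and 118.5 in control pools, a log2 difference of 0.18 (SE 0.13). On X51415cds_s_at unloaded pool 1 and control pool 1 were almost equal. Most of each Lipe difference came from unloaded pool 2: without that array the differences were 0.04 and 0.05, and without unloaded pool 1 both were 0.30. The probe sets thus gave nearly the same difference, 0.005 apart on the log2 scale, where the median gap was 0.15 over the 659 genes with 2 tested probe sets.

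Lipa, the lysosomal lipase, was higher in unloaded pools on 3 probe sets that differed widely in size. rc_AA874784_s_at read 45.1 and 35.3 in unloaded pools, against 7.1 and 11.3 in control pools. The means were 40.2 ± 6.93 in unloaded pools and 9.20 ± 2.97 in control pools (SD, n = 2 each). The log2 difference of 1.44 (SE 0.23) passed, but the probe set was tested only because its unloaded signal lifted its mean over the filter. Since the control signals are about as large as the offset of 9 and no detection call was used, the size of that difference is not settled, and it was 1.84 with an offset of 3.0 and 0.77 with one of 34.8. With any 1 array left out it stayed between 1.27 and 1.60 and did not pass.

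The other Lipa probe sets share a source sequence with each other. S81497_s_at read 57.7 and 56.2 in unloaded pools, against 37 and 45 in control pools (log2 difference 0.40, SE 0.16). S81497_i_at, of a class with fewer unique probes than the design asked for, read 273.9 and 283.3 in unloaded pools, against 217.9 and 244.2 in control pools (log2 difference 0.26, SE 0.11). Neither passed, and in both the unloaded pools lay above the control pools. The 3 Lipa differences spanned 1.17 on the log2 scale with the offset of 9, a span set by rc_AA874784_s_at. It was 1.57 with an offset of 3.0 and 0.53 with one of 34.8. Of the 179 genes with 3 tested probe sets, 6 (3.35%) spanned at least as much with the offset of 9, Lipa included, and 26 (14.5%) with that of 34.8. That several probe sets of the 6 genes disagree was known when the genes were chosen, so these shares are a description only. Lpl spanned 0.33 with each offset, and Scarb1 spanned 0.33 with the offset of 9, 0.50 with that of 3.0 and 0.06 with that of 34.8.

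**Figure D2:**
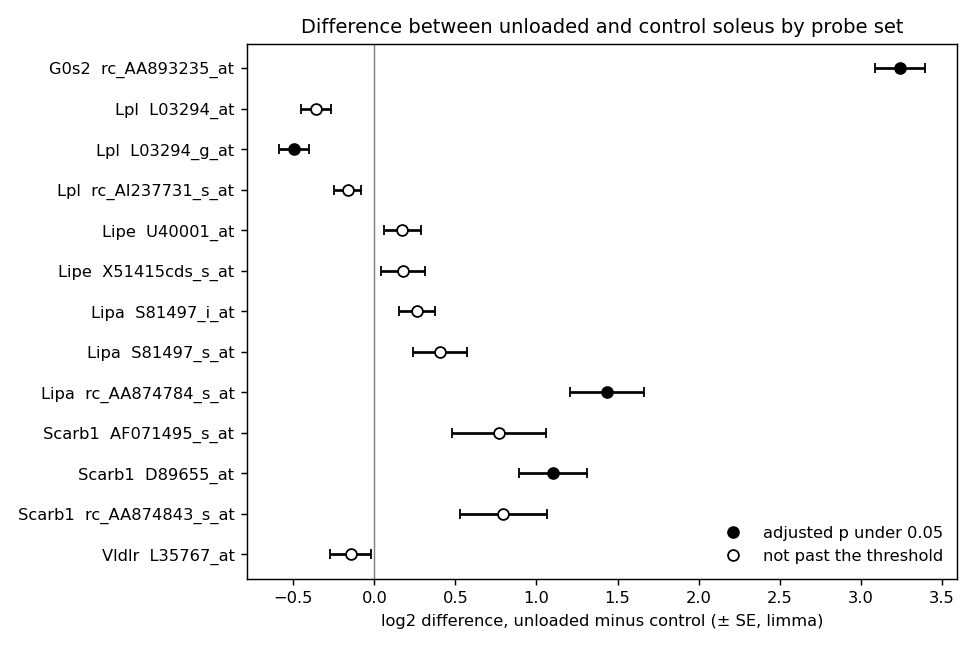
Log2 difference, unloaded minus control, of each probe set with its SE from limma (n = 2 pools per group), with filled points for those that passed an adjusted p of 0.05. Of the 13, G0s2 and 1 probe set each of Lpl, Lipa and Scarb1 are filled, and the points of Lpl and Vldlr lie left of 0.

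Scarb1, the receptor for high-density lipoprotein, was higher in unloaded pools on all 3 probe sets, with wide spreads between pools on 2 of them. D89655_at read 51.8 and 38.3 in unloaded pools, against 17.4 and 14.6 in control pools. Its means were 45.05 ± 9.55 in unloaded pools and 16.0 ± 1.98 in control pools (SD, n = 2 each), and its log2 difference of 1.10 (SE 0.21) passed, though this probe set too was tested only through its unloaded signal. It did not pass with any 1 array left out (0.92 to 1.28), and it was 0.65 with the offset of 34.8.

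AF071495_s_at of Scarb1 read 96 and 126.9 in unloaded pools, against 41.4 and 88.5 in control pools, at a log2 difference of 0.77 (SE 0.29) that did not pass. Its control pools were far apart, and the difference was 0.29 without control pool 1 and 1.24 without control pool 2. rc_AA874843_s_at read 56.9 and 112.8 in unloaded pools, against 44.9 and 40.4 in control pools, at 0.80 (SE 0.27), and did not pass. Here the unloaded pools were far apart, with 0.35 without unloaded pool 2 and 1.24 without unloaded pool 1, where it passed. The 3 Scarb1 probe sets did not order the pools alike: unloaded pool 1 was the higher unloaded pool on D89655_at and the lower one on the other two, and control pool 2 was the higher control pool on AF071495_s_at alone.

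Vldlr, the receptor for triglyceride-rich particles, had 1 probe set and a small difference. L35767_at read 97.6 and 104 in unloaded pools, against 111.7 and 113.4 in control pools, with a log2 difference of -0.15 (SE 0.12) that did not pass. The unloaded pools lay below the control pools, at 89.6% of the control mean.

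In all, 4 of the 13 probe sets passed, 3 higher (among them both that were tested only through their unloaded signal) and 1 lower in unloaded pools, where 5.25% of all tested probe sets passed (2.59% higher, 2.66% lower). Since the genes were chosen with this difference known, nothing is read from that count. In each of Lpl, Lipa and Scarb1, 1 probe set of 3 passed. Of the 32 genes with 3 tested probe sets of which at least 1 passed, 27 had another that did not. The pools of the groups did not overlap for any of the 13 probe sets (9 above, 4 below), and they did not overlap for 50.8% of all tested probe sets. With 1 array left out G0s2 alone of the 13 passed in 3 of the 4 cases, and in the remaining one, without unloaded pool 1, it passed together with rc_AA874843_s_at of Scarb1.

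**Figure D3:**
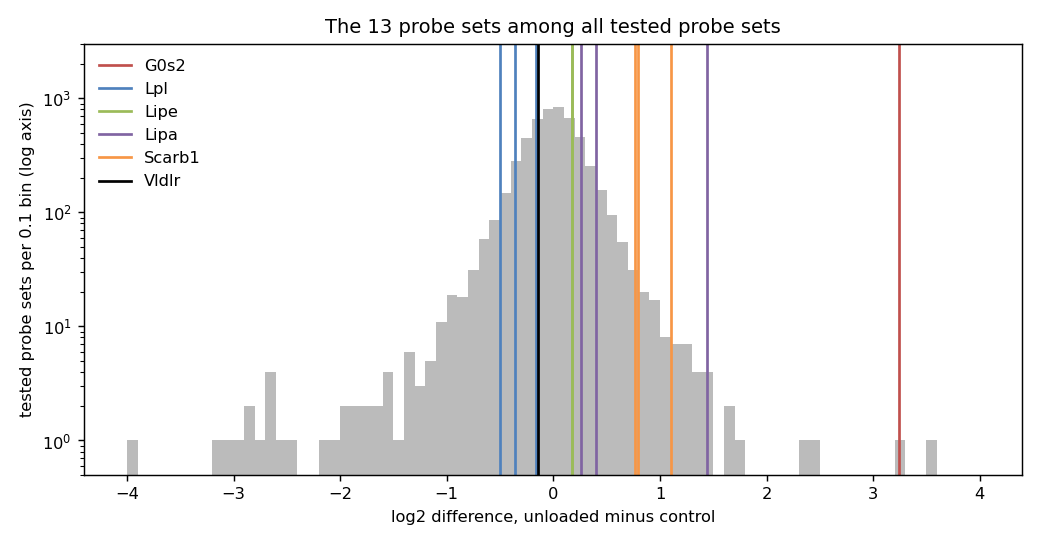
Histogram of the log2 difference, unloaded minus control, of the 5257 tested probe sets (bins of 0.1, log count axis), with a vertical line at each of the 13 probe sets, coloured by gene. Lines of Lipe and Vldlr fall in the body of the distribution, and those of Lpl lie between -0.50 and -0.16. G0s2 at 3.24 lies beyond all but 1 tested probe set.

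Genes that work with these 6 were counted over 6 lists, each gene by its brightest probe set on the log2 scale. Of 151 listed genes 88 had a probe set of their own and 70 were tested, of which 3 rose, 1 fell and 66 did not pass. This is 4 of 70, where 4.70% of all 3152 tested genes passed (2.54% higher, 2.16% lower). The median log2 difference of the 70 was -0.03, and that of all tested genes was 0.01. Of all tested genes 19.9% had an unadjusted p under 0.05, and the counts at that level below are to be read against this share. With any 1 array left out, 1 of the 70 passed.

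No tested gene of the lipid droplet and neutral lipolysis list passed in limma (7 tested of 23 listed, median 0.28), and 3 had an unadjusted p under 0.05. Plin2, a coat protein of lipid droplets, was nearest, at 233 ± 28.1 in unloaded pools and 166 ± 2.40 in control pools (log2 difference 0.46, SE 0.12, limma adjusted p = 0.078). The other Plin2 probe set, rc_AA874941_at, was under the filter and went the other way, at 6.8 in unloaded and 9.0 in control pools. The fatty acid carrier Fabp4 gave 0.31 (SE 0.11), the glycerol channel Aqp7 0.28 (SE 0.12) and the monoglyceride lipase Mgll, which finishes the reaction that Lipe continues, -0.19 (SE 0.14).

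Hormonal control of lipolysis acts through cyclic AMP and protein kinase A, which phosphorylates Lipe. None of its 17 tested genes passed by this reading (25 listed, median -0.02), and 2 had an unadjusted p under 0.05 in limma. The adenylyl cyclase Adcy6 gave 0.63 (SE 0.25), Adcy5 0.43 (SE 0.23), the insulin receptor Insr -0.42 (SE 0.17) and the catalytic subunit Prkaca -0.21 (SE 0.10). The control means of Adcy6 (15.15) and Adcy5 (19.85) lay under the filter, so these were tested only through their unloaded signal. The inhibitory G protein subunit Gnai2 had a difference of -0.13 (SE 0.26) on its brightest probe set, with control pools far apart. Of its dimmer probe sets 1 rose (0.51, SE 0.11, limma adjusted p = 0.0393) and the other did not pass (0.43, SE 0.13).

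Among the partners of Lpl and the plasma lipoproteins, none of 12 tested genes passed in limma (26 listed, median -0.06), where 3 had an unadjusted p under 0.05. Apoe, a ligand of Vldlr, read 643 ± 0.424 in unloaded pools and 495 ± 19.1 in control pools (0.37, SE 0.09, limma adjusted p = 0.062). The other Apoe probe set, S76779_s_at, went the other way (-0.10, SE 0.11) and did not pass, with pools that overlapped. Lcat, which esterifies cholesterol in plasma, gave -0.69 (SE 0.18), and the cell surface proteoglycan Sdc2 gave 0.55 (SE 0.17). Another proteoglycan, Sdc4, had a difference of -0.18 (SE 0.21) by that reading but fell on a dimmer probe set (-0.55, SE 0.12, limma adjusted p = 0.0429). Gpihbp1, which holds Lpl at the capillary wall, and its inhibitor Angptl4 were not analysed here.

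None of 7 tested genes of lipoprotein receptors and cholesterol handling passed in limma (28 listed, median -0.04), and 2 had an unadjusted p under 0.05. Stard3, a carrier of cholesterol from late endosomes, gave 0.29 (SE 0.10), the fatty acid transporter Cd36 -0.27 (SE 0.10), the endocytic receptor Lrp2 -0.39 (SE 0.20) and Scarb2, a lysosomal relative of Scarb1, -0.31 (SE 0.16). The other Cd36 probe set, AB005743_at, gave -0.02 (SE 0.10), with pools that overlapped. The other Lrp2 probe sets were under the filter and differed in direction. L34049_at averaged 17.8 in unloaded and 12.3 in control pools, and rc_AA891764_s_at 5.3 in unloaded and 8.75 in control pools.

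In triglyceride synthesis 2 of 11 tested genes rose and 1 fell (23 listed, median -0.04), and 5 had an unadjusted p under 0.05. Gpd1, which makes the glycerol phosphate backbone, read 77.35 ± 8.27 in unloaded pools and 27.05 ± 1.20 in control pools (1.26, SE 0.16, limma adjusted p = 0.00534). Acsl6, which activates fatty acids, rose by 0.98 (SE 0.14), and Plpp1, a lipid phosphate phosphatase, fell by 0.62 (SE 0.11). Acsl1, the major acyl-CoA synthetase of muscle, gave 0.45 (SE 0.11), Dgat1, which adds the last fatty acid to a triglyceride, -0.25 (SE 0.11), Acsl3 -0.27 (SE 0.17) and Acsl5 -0.25 (SE 0.17), and these did not pass. With 1 array left out, Gpd1 passed without control pool 1 or without unloaded pool 2, Acsl6 without unloaded pool 1, and Plpp1 in no case.

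Of 16 tested nuclear receptors and lipid regulators, Nr1d1 rose and 15 did not pass (26 listed, median -0.06), and 4 of the 16 had an unadjusted p under 0.05. Nr1d1, a repressor of the circadian clock that also acts on lipid genes, read 362 ± 25.5 in unloaded pools and 211 ± 27.1 in control pools (0.76, SE 0.12, limma adjusted p = 0.0142), and with 1 array left out it passed only without control pool 2. Insig1, which retains the sterol sensor, gave -0.66 (SE 0.16), Cebpb 0.29 (SE 0.09), Ppara, a fatty acid receptor, -0.51 (SE 0.19) and Srebf1 -0.36 (SE 0.18).

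**Figure D4:**
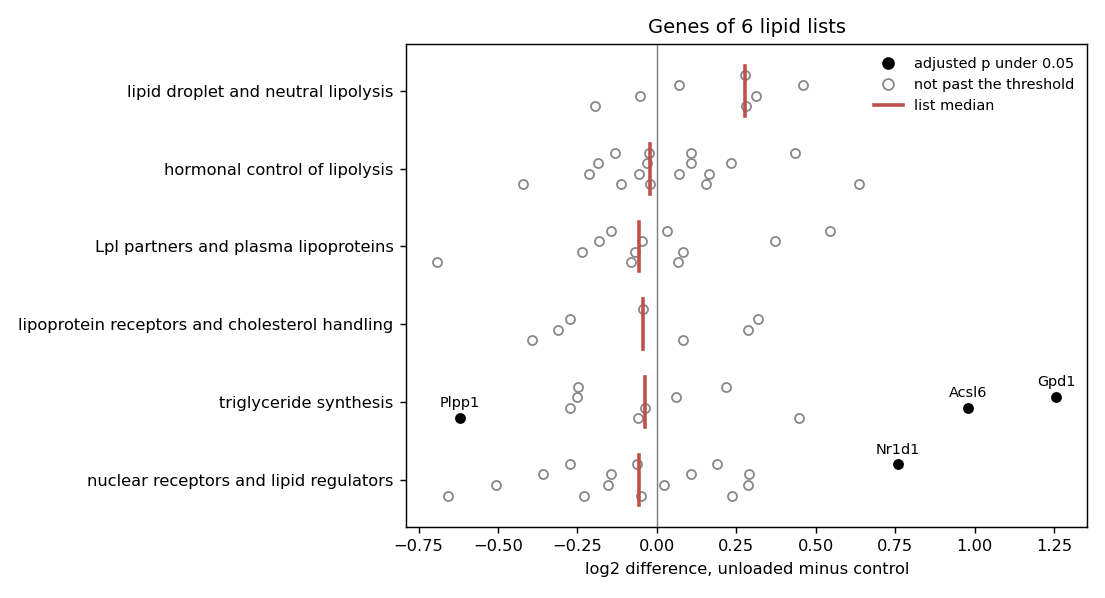
Log2 difference, unloaded minus control, of each tested gene of 6 lists (brightest probe set), with filled points for genes that passed, open points for the others and red bars for list medians. The filled points are Gpd1, Acsl6, Nr1d1 and Plpp1, and all list medians lie between -0.06 and 0.28.

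G0s2, Lpl and Lipe are also abundant in fat cells. In RNA from whole muscle, fewer cells of a type and less RNA per cell cannot be told apart. Of 13 adipocyte markers 9 had a probe set, 6 were tested and none passed in limma, with 3 at an unadjusted p under 0.05 (19.9% of all tested genes). Their summed signals were 2027.4 and 2295.3 in unloaded pools and 2095.1 and 2197.2 in control pools. Lep made up the largest share of these sums and their members differed in direction, so the overlap of the sums says little of the single markers. The Lep value in the sums is that of D49653_s_at alone. The other Lep probe sets, D45862_g_at and D45862_at, averaged 28.9 and 13.3 in unloaded pools and 35.65 and 12.1 in control pools. None of the 9 was at 0 on all arrays. Plin1, the lipid droplet coat of fat cells, read 5.8 and 12.9 in unloaded pools and 19.5 and 19.3 in control pools, under the filter, as were Pck1 and Ucp1. Besides Fabp4 and Aqp7 above, Cfd gave -0.61 (SE 0.19), Lep -0.16 (SE 0.12), Cidea 0.07 (SE 0.14) and Adrb3 -0.03 (SE 0.14), and Adipoq was not analysed here. Summed endothelial markers (6 of 12) were 359.3 and 419.4 in unloaded pools and 457.9 and 459.6 in control pools, which did not overlap. Of those tested, Kdr (-0.63, SE 0.31) was farthest from 0, with pools that overlapped. Pools also overlapped for Pecam1 (0.02, SE 0.12) and Vwf (-0.03, SE 0.20). For Flt1 (-0.23, SE 0.13) and the brightest probe set of Nos3 (-0.56, SE 0.25) the unloaded pools lay below the control pools. None of the 5 tested endothelial genes passed in limma, with 0 at an unadjusted p under 0.05, and their part in the Lpl values was not tested. Macrophage markers (8 of 13) summed to 598.4 and 495.8 in unloaded pools and 416.6 and 605.3 in control pools. Blood markers (4 of 6) summed to 7951.4 and 7696.8 in unloaded pools and 6828.7 and 7200.8 in control pools, which did not overlap. None of these 4 passed in limma, and 2 had an unadjusted p under 0.05, Hbb (0.21, SE 0.08) and Alas2 (0.38, SE 0.16). The part of blood in the values of the 6 genes was not tested. Markers of slow muscle (7 of 10) were present in all pools, such as Myh7 at 9534.3 and 10728.4 in unloaded pools and 10907.4 and 11198.2 in control pools on 1 probe set.

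Among the other 4350 tested probe sets annotated to 1 gene, the profile most like that of G0s2 was that of Cyp27a1, the mitochondrial sterol hydroxylase. Likeness was the root mean square distance between log2 values on the 4 arrays, each less its own mean, so it follows both size and shape and rests on 4 pools. Cyp27a1 lay at 0.475 log2 units, Stk39 at 0.514, Mchr1 at 0.761, Gadd45a at 0.861 and Cited2 at 0.929. Since they were picked for this likeness, their higher signal in unloaded pools is fixed by the choice and is no result. Cyp27a1 read 237.1 and 203.4 in unloaded pools, against 36.5 and 36.9 in control pools. The control signals of Stk39 (12.4 and 22.1), Mchr1 (7.5 and 6.0) and Gadd45a (9.2 and 14.5) averaged under the filter, so these were tested only through their unloaded signal.

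**Figure D5:**
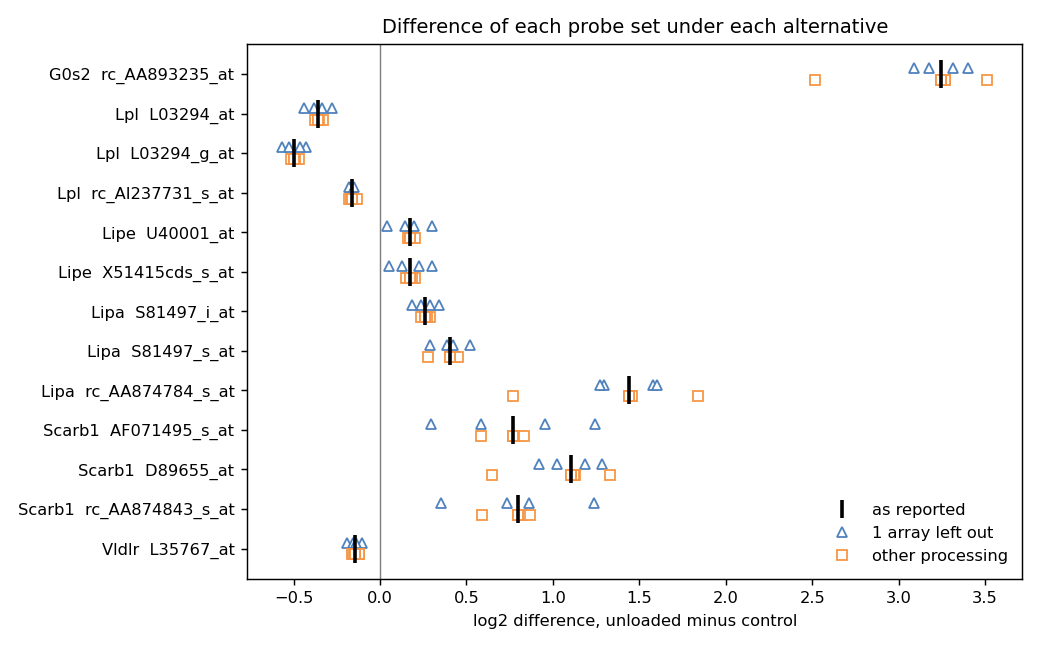
Log2 difference, unloaded minus control, of each probe set as reported (black bar), with 1 array left out (triangles) and under the other processing alternatives (squares). No point of any probe set lies on the other side of 0 from its reported value, the points of G0s2 lie between 2.52 and 3.51, and those of AF071495_s_at and rc_AA874843_s_at of Scarb1 spread from 0.29 to 1.24.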

How the data were processed

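The authors deposited 1 table of intensity values for 8799 probe sets on 4 arrays, made with MAS5 per the submitters' processing notes (version and settings: not given in the sources used here). Without the extreme 2% at each end, the mean signal was 150.2 or 150.3 on every array, as scaling to a common target gives, which assumes that total mRNA signal did not differ between groups. After 59 control probe sets were left out, symbols came from the platform annotation, updated by gene ID to RefSeq (GRCr8), and 7006 probe sets had 1 symbol. The offset of 9 is the 25th percentile of all deposited values, and the filter of 21.0 is the 40th percentile of the mean signals of the deposited probe sets. limma 3.58.1 in R 4.3.3 (lmFit, eBayes with a mean-variance trend) compared the groups, with 2 residual and 5.80 prior degrees of freedom. The fit was also run on simulated data drawn from its own model, which cannot show how well that model describes these arrays. Pools of a group correlated at 0.988 (unloaded) and 0.987 (control) on the log2 scale, against 0.973 to 0.974 between groups.

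The 6 genes, the lists and the rules were chosen with earlier results of these data known. Named genes were all probe sets of the 6 genes, the adipocyte markers measured, from each list the genes that passed and up to 4 others with the smallest p, and the 5 profiles nearest to G0s2. Other probe sets of listed genes that passed were named after their values were seen. So were other probe sets of Apoe, Cd36, Lep, Lrp2 and Plin2, the tested endothelial genes, Hbb, Alas2 and Myh7. Alternatives were other scaling, offsets, filters, variance model and thresholds, the pool number as a block, and leaving out each array. Plots were made in Python 3.11.15 (matplotlib 3.10.9).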

Additional observations from a re-analysis of the deposited data

How the results depend on the processing

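No difference of the 13 probe sets changed sign under any of the 12 alternatives, and G0s2 passed in all of them (2.52 to 3.51). Of the others that passed, without a filter on dim probe sets Lipa rc_AA874784_s_at (1.44, adjusted p = 0.0608), Lpl L03294_g_at (-0.50, 0.081) and Scarb1 D89655_at (1.10, 0.105) did not, and without a mean-variance trend L03294_g_at did not (-0.50, 0.11). More probe sets are adjusted for without the filter. With 1 array left out they did not pass, at 1.27 to 1.60 for Lipa, -0.56 to -0.43 for Lpl and 0.92 to 1.28 for Scarb1. Lpl L03294_at passed with quantile normalization (-0.37, 0.0418) and with the filter at the 60th percentile (-0.36, 0.0399). Scarb1 rc_AA874843_s_at ranged from 0.35 to 1.24 with 1 array left out. The filter at the 60th percentile left out rc_AA874784_s_at, S81497_s_at and D89655_at.

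Pool numbers are shared by the groups, and deviations of same-numbered pools from their group means correlated at -0.04 over 5257 probe sets. With so few pools and no array batch used here, this value cannot tell whether same-numbered pools were handled together, which was not tested. With the pool number as a block 165 probe sets passed, against 276 without it, and Lipa rc_AA874784_s_at (1.44, adjusted p = 0.0542) and Scarb1 D89655_at (1.10, 0.0577) did not.

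Over all tested probe sets, 90 passed without a filter, 113 without a mean-variance trend, 67 to 84 with 1 array left out, 458 at an adjusted p under 0.1 and 97 under 0.01, against 1092 at an unadjusted p under 0.05. Of the listed lipid genes 1 passed without a filter, 2 without a trend, 7 with the filter at the 60th percentile and 1 with any 1 array left out. With 2 pools per group a small difference cannot be told from none. No detection call or array batch was used here. The cause of these changes was not tested.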
